A study of Homo sapiens with 10 samples.

Results

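The 4 RNA-seq libraries of HEK293T cells kept in complete medium were described on their own, without a contrast to any other medium. They are the complete-medium columns of a table of 10 libraries, taken by their labels, and are called complete replicates 1 to 4. HEK293T is an established line from human embryonic kidney that carries the large T antigen of a polyomavirus. The series cultured this line for 24 h in medium with 0X (2 libraries), 1X (4 libraries) or 10X (4 libraries) of the usual cysteine, and poly(A)-selected RNA was sequenced as read pairs. The complete libraries are the 1X group, for which the labels name no other treatment and no genetic change. The line is transformed and long adapted to culture, so it stands for no kidney cell in particular. The labels call the 4 libraries biological replicates without saying how the cultures were separated, so the spread among them may be partly technical. The number of independent replicates given in the paper differs from the number of libraries in the labels, and how the former relate to the latter is not given in the sources used here. In bulk RNA, fewer cells that express a gene and less RNA per cell cannot be told apart.

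A baseline transcriptome shows which programmes a line has switched on. Cells use a shared set of housekeeping genes for energy, protein synthesis and division, and lineage genes on top of it, chiefly transcription factors with their targets, mark the tissue a cell comes from. Solute carriers set which nutrients can enter. Because the series changes the supply of cysteine, the carriers of cystine and of other amino acids were described in detail.

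The complete libraries held 42247325, 34836014, 42666557 and 38778307 reads on genes. These were recovered from the deposited normalised counts, all of which were whole multiples of a step of each library. Levels are given as the reads per kilobase of merged exons of GENCODE release 44, scaled to one same total in each library over 61426 gene models, the unit known as TPM. Gene coordinates are those of this release on GRCh38. A gene is called on at 1 TPM or more in every library, off below 0.1 TPM in every library, and between otherwise. 3 features of the counting limit the levels. Of 21 X-linked genes that have a Y copy and 10 or more reads in every library, 18 had exactly as many reads on the Y copy, so reads that match several places appear to have been counted at each. Genes with 2 reads numbered 4488 to 4653 per library against 2164 to 2231 with 1 read and 1126 to 1237 with 3 reads, so both mates of a pair appear to have been counted. The study's methods state that reads over several genes were discarded. Of 1526 genes whose exons lie wholly within exons of other genes on the same strand in this release, 721 had 10 or more reads in every library, and of 805 that lie wholly within exons of the opposite strand only, 398 did. How reads over overlapping genes were counted is therefore uncertain. The share of exon bases in common with another gene is given for some of the genes where it is large. For a gene at 0, 3 read pairs or 6 reads per library remain possible, and that limit in TPM is given as its floor; it covers counting error only.

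Protein-coding genes held most of the summed level, and 13051 of 20021 of them (65.2%) were on, the share against which the counts of each list of coding genes are to be read. Another 3512 lay between and 3458 were off. At 10 TPM or more in every library there were 8050 coding genes, at 100 TPM or more 868, and at 1000 TPM or more 41, of which 28 were nuclear. The median level of the coding genes on was 16.1 TPM. Over all gene models, 20311 of 61426 (33.1%) were on and 23489 were off, and 20177 had no read in any complete library. Of the 20311, 8499 shared no exon base with another gene.

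By class, coding genes held 64.8% ± 0.315 of the summed level (SD, n = 4 here and below) and 88.9% ± 0.238 of the reads. Long noncoding genes held 12.1% ± 0.201 of the level and 6.88% ± 0.224 of the reads, with 4387 of 17691 on, 72.2% of which shared exon bases with another gene. Processed pseudogenes, which are copies of spliced mRNAs, held 9.02% ± 0.106 of the level but 1.74% ± 0.0155 of the reads, with 1018 of 10136 on. Their level is uncertain, because reads that match the parent gene can be counted on them too. In none of these 3 classes did the share vary by more than 1 percentage point (SD) between libraries. Of the 340 miRNA gene models on, 212 lay over exon bases of another gene, so their level cannot be read as miRNA.

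**Figure D1:**
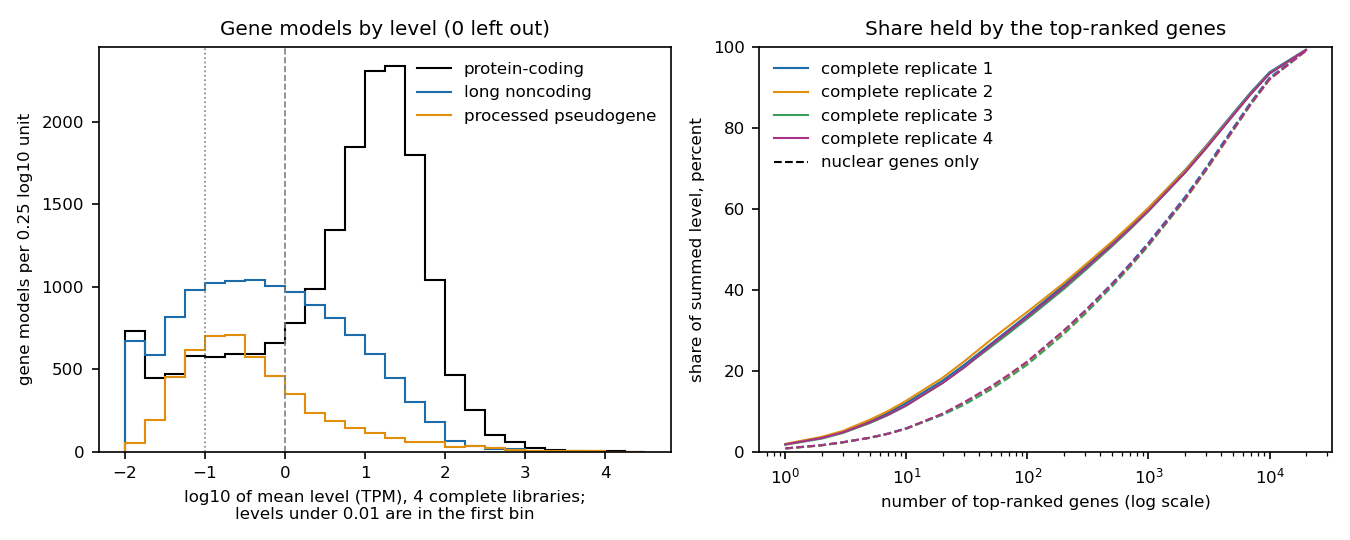
Left, number of gene models per bin of mean level over the 4 complete libraries, for protein-coding genes, long noncoding genes and processed pseudogenes, with lines at 0.1 and 1 TPM. Right, the share of the summed level held by the top-ranked genes of each library, for all genes and for nuclear genes only. The coding genes peak above 10 TPM, and the 4 libraries nearly overlay each other.

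The level was concentrated in few genes. The top-ranked 100 genes held 33.6% ± 0.718 of the level, and between 423 and 470 genes per library held the first 50% of it. The 37 genes of the mitochondrial genome made up 18.7% ± 0.835 of the level and 4.80% ± 0.254 of the reads. With these genes set aside, the top-ranked 100 nuclear genes held 22.0% ± 0.336. The 87 genes of cytosolic ribosomal proteins and their close relatives held 5.33% ± 0.107. Of these, 86 were on, and the exception was RPL10L, a retrocopy known from testis, with no read in any library.

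The first 13 places among coding genes went to the 13 mitochondrial mRNAs, which encode subunits of the respiratory chain and of ATP synthase. MT-ATP8 led with 18195, 19291, 17358 and 17929 TPM in complete replicates 1 to 4, the order in which values are listed throughout. Of its exon bases 22.2% are shared, chiefly with MT-ATP6, which lies in the same transcript and followed at 16255 ± 1033 TPM. MT-CO1, a subunit of cytochrome c oxidase, had 12585, 13465, 12033 and 11972 TPM, and MT-ND6, the one mRNA from the opposite strand, was lowest at 3640, 4226, 3512 and 3707 TPM. Complete replicate 2 was highest for MT-ATP8, MT-CO1 and MT-ND6.

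The nuclear genes at the top serve translation, glycolysis and protein folding. RPS2, of the small ribosomal subunit, had 2949, 2841, 2928 and 3043 TPM, with 25.9% of its exon bases shared. RPS12 had 2347, 2290, 2348 and 2349 TPM and RPL41 2239, 2153, 2184 and 2246 TPM, both without shared bases. The elongation factor EEF2 stood at 2026 ± 60.7 TPM and the glycolytic enzyme GAPDH at 1803 ± 50.9 TPM. The libraries lay close together for all of these genes. The inducible HSP70 chaperones HSPA1A and HSPA1B ranked among them but were less even. HSPA1A had 2260, 2303, 1383 and 3023 TPM, and HSPA1B had 2889, 2925, 1766 and 3806 TPM. Complete replicate 3 was lowest and replicate 4 highest for both. The 2 genes are near-identical, so reads could be counted on both and the level of each is uncertain. HSPA1B shares 36.6% of its exon bases with another gene, GAPDH 17.6% and UBB, named next, 29.4%. RPL8, EEF1A1, UBB, HSP90AB1, RPS6, RPS4X, RPL7A, ACTG1, RPS18, RPS27 and TMSB10 are also among the 20 top-ranked nuclear coding genes with under 50% of exon bases shared, which reach down to TMSB10 at 1109 ± 44.6 TPM.

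Transcripts of the translation machinery often begin with a cytosine followed by a run of pyrimidines, the 5′ TOP motif through which their translation is regulated. It was looked for as C at the first base of the RefSeq start (GRCh38.p14) with C or T at each of the next bases up to base 5, on the gene's strand only. It was present in 44 of 69 matched ribosomal protein genes (63.8%), against 520 of the 10192 other coding genes on (5.10%) and 714 of 15342 coding genes with a window in the table (4.65%). Starts of 8 of the genes above or in the same rank range are shown from 10 bases before to 20 bases after the start, with the run in capitals where it begins at the start and is at least 5 bases long, to show which top-ranked genes carry it and which do not.
RPS12 (chr6:132814559-132814588, plus strand): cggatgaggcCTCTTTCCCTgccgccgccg
RPL41 (chr12:56116623-56116652, plus strand): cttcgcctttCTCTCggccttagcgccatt
EEF2 (chr19:3985444-3985473, minus strand): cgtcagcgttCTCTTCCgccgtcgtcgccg
EEF1A1 (chr6:73521013-73521042, minus strand): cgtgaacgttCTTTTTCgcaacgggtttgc
RPS6 (chr9:19380217-19380246, minus strand): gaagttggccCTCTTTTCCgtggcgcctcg
RPS18 (chr6:33272065-33272094, plus strand): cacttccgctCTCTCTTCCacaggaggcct
GAPDH (chr12:6535254-6535283, plus strand): gtgcatccctgtccggatgctgcgcctgcg
HSPA1A (chr6:31815533-31815562, plus strand): cggtccggataacggctagcctgaggagct
The 6 genes of translation have runs of 5 to 10 bases from the start. GAPDH and HSPA1A, at like levels, have none at this position. A match is a description of the reference and says nothing of how these mRNAs were translated here.

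The 5 top-ranked long noncoding genes without shared exon bases have no symbol in the annotation. ENSG00000289901 (chromosome 13, 109424172 to 109424332, minus strand), 161 bases long, had 2876, 3196, 3246 and 2750 TPM. ENSG00000290018 and ENSG00000289393 followed at 1132 ± 27.7 and 804 ± 21.9 TPM. ENSG00000280800 (chromosome 21, 8210384 to 8211306, minus strand) had 819.9, 701, 487 and 961 TPM, and ENSG00000280614, further along chromosome 21 and of the same length, had 819.8, 701, 487 and 961 TPM. The values of this pair nearly coincide, and reads that match both places can be counted at each, so the pair is not taken as separate observations. Complete replicate 3 was lowest and replicate 4 highest for the pair. Among pseudogenes RPL41P1, a copy of RPL41 with 81 exon bases, was listed at 6537 ± 204 TPM, EEF1A1P5, a copy of EEF1A1, at 4178 ± 60.6 TPM and MTATP6P1, a nuclear copy of MT-ATP6, at 3933 ± 243 TPM, all 3 subject to the same limit.

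The label names a kidney line, and both developmental and mature kidney markers were examined. In the kidney development list 15 of 22 genes (68.2%) were on, near the 65.2% of all coding genes, and 7 of the 11 without shared exon bases. SIX2 (chromosome 2, 45005182 to 45009452, minus strand), the transcription factor that keeps nephron progenitors undifferentiated, had 37.2, 38.3, 40.2 and 34.3 TPM. SALL1, another factor of these progenitors, had 14.9, 12, 15 and 12 TPM, below every level of SIX2. POU3F3 stood at 13.7 ± 0.607 TPM, SIX4 at 9.17 ± 0.43 TPM and GATA3 at 8.05 ± 0.601 TPM. CITED1 stood at 30.3 ± 3.0 TPM, with 39.4% of its exon bases shared.

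Other defining factors of the nephric lineage were low or off. PAX2 was on at 1.19, 1.16, 1.74 and 1.03 TPM, barely over the threshold. Its relative PAX8 was off, at 0.0352, 0, 0.035 and 0.0192 TPM, and so was HNF4A, a factor of the tubule, at 0.0255, 0, 0 and 0.0418 TPM. TFAP2B had no read in any library (floor 0.0762 TPM). The list thus held both progenitor factors above 10 TPM and nephron factors at or near 0.

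Of the mature nephron list 4 of 22 (18.2%) were on, and 2 of the 13 without shared exon bases. UMOD, which the thick ascending limb secretes, and SLC22A6, the organic anion carrier of the proximal tubule, had no read in any library (floors 0.138 and 0.196 TPM). SLC12A1, the salt carrier of the ascending limb, stood at 0.0606, 0.0487, 0.0101 and 0.0496 TPM and AQP2, the collecting duct water channel, at 0.0602, 0.0363, 0 and 0 TPM. Both were off. The members on were SLC5A2, a glucose carrier, at 12.3 ± 2.28 TPM with 40.7% of its exon bases shared, the endocytic receptor LRP2 at 3.23, 3.53, 4.16 and 3.02 TPM, the water channel AQP3 at 2.81, 2.58, 3.28 and 4.13 TPM, and ATP6V1B1, a subunit of the proton pump, at 2.38 ± 0.481 TPM with 63.1% shared.

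Neuronal genes were on in 17 of 24 cases (70.8%), near the 65.2% of all coding genes, and in 5 of the 9 without shared exon bases. The neurofilament gene NEFM was the highest of the list, at 266, 257, 277 and 267 TPM, and the neuronal ubiquitin hydrolase UCHL1 followed at 217, 213, 215 and 209 TPM. The neurofilament genes NEFL and INA had 64 ± 6.57 and 52.8 ± 1.48 TPM. These 4 stood in the same order in every library without overlap between neighbours. NEFM shares 26.4%, NEFL 19.8%, INA 13.9% and UCHL1 6.12% of its exon bases with another gene. Without shared bases, ENO2 had 10.9 ± 0.707 TPM, INSM1 8.78 ± 0.615 TPM and ELAVL2 5.77 ± 0.372 TPM. Genes of differentiated neurons were not all on. SYP, SYT1, MAPT and RBFOX3 were on, at means of 13.3, 3.47, 2.60 and 1.38 TPM. SNAP25, of the synaptic vesicle fusion complex, stood at 0.0382, 0.0768, 0.00634 and 0.0764 TPM, DCX, of migrating neurons, at 0, 0.0153, 0 and 0 TPM and ELAVL4 at 0.0155, 0.0187, 0 and 0 TPM, all off.

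The adrenal gland lies beside the kidney, and its 2 tissues were looked for too. Of the chromaffin list of the adrenal medulla, 6 of 15 were on, led by the transcription factors GATA2 at 18.5, 18.3, 15.4 and 19.9 TPM and ISL1 at 10.4, 9.96, 11 and 10.7 TPM. The vesicle carrier SLC18A2 stood at 8.75 ± 0.373 TPM with 56.4% of its exon bases shared, and HAND2 at 2.18 ± 0.488 TPM. CHGA, a protein of the secretory granules, had 2.21, 2.66, 1.71 and 3.44 TPM and PNMT, the enzyme that makes adrenaline, 2.73, 1.88, 1.5 and 3.11 TPM, both on. TH, the rate-limiting enzyme of catecholamine synthesis, and the vesicle carrier SLC18A1 had no read in any library (floors 0.147 and 0.12 TPM), and DBH, the enzyme of noradrenaline synthesis, stood at 0.118, 0.114, 0.188 and 0.129 TPM. Of the adrenal cortex list 3 of 13 were on, FDX1 at 23.8 ± 1.2 TPM, MRAP at 10.6 ± 1.21 TPM and INHA at 1.47 ± 0.22 TPM, and 70.2% of the exon bases of MRAP are shared with another gene. NR5A1, the master regulator of steroid-producing cells, stood at 0.171, 0.137, 0.189 and 0.249 TPM, while CYP11A1, the first enzyme of steroid synthesis, and MC2R, the receptor of corticotropin, had no read (floors 0.138 and 0.126 TPM).

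In the pluripotency and fetal list 9 of 16 were on, with the fetal RNA-binding proteins IGF2BP1 at 117, 113, 111 and 111 TPM and LIN28B, which blocks let-7 maturation, at 45, 47.8, 41.9 and 46.9 TPM among them. LIN28A, its paralogue, was off at 0, 0, 0.0325 and 0 TPM. SOX2 was on at 9.14, 8.78, 7.71 and 8.11 TPM and POU5F1 at 1.6, 1.53, 1.44 and 2.1 TPM, while NANOG was off at 0.0241, 0.0145, 0.0239 and 0.0394 TPM.

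Both mesenchymal and epithelial genes were found. Of the mesenchymal list 10 of 17 were on. The intermediate filament gene VIM had 355, 325, 384 and 318 TPM, with 24.6% of its exon bases shared, the transcription factor SNAI2 50.5, 47.4, 55.1 and 44.6 TPM and N-cadherin, CDH2, 20.9, 21.9, 22.6 and 19.6 TPM. Replicate 3 held the highest and replicate 4 the lowest value of each of these 3. Fibronectin, FN1, stood at 7.85 ± 0.364 TPM. The collagen gene COL1A1 and ACTA2 were on, at means of 6.40 and 6.79 TPM. COL1A2, another collagen gene and a fibroblast marker, was off at 0, 0.00723, 0 and 0 TPM. Of the epithelial list 6 of 16 were on. The keratin genes KRT18 and KRT8 had 39.4 ± 1.98 and 10.3 ± 0.932 TPM, E-cadherin, CDH1, had 2.41 ± 0.335 TPM and EPCAM 1.76 ± 0.538 TPM, while KRT19 was off at 0, 0, 0.0553 and 0 TPM. The level of CDH2 was above that of CDH1 in every library.

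None of the 8 endothelial and none of the 8 hepatocyte genes was on. The leukocyte antigen PTPRC had no read in any library (floor 0.0304 TPM), and VWF stood at 0.025, 0, 0.0497 and 0.0681 TPM. In the blood list 4 of 13 were on, all of them with shared exon bases. Among these were the alpha globin genes HBA1 (9.2 ± 0.537 TPM) and HBA2 (8.29 ± 0.885 TPM), a near-identical pair whose values cannot be separated, and CD68 (4.08 ± 0.398 TPM, 85.6% of exon bases shared). Beta globin, HBB, had no read. Of the muscle list 2 of 9 and of the germ line list 3 of 14 were on, and PRAME, an antigen of testis and tumours, reached 41.2, 41.7, 43.7 and 44.5 TPM. Over the 13 lists together 79 of 197 genes (40.1%) were on, below the 65.2% of all coding genes, and 28 of 105 without shared exon bases.

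2 large families that such cells should lack give the background of these calls. Of 415 olfactory receptor genes 1 was on, OR1F1 at 2.41, 1.74, 1.51 and 2.06 TPM, 369 were off and 329 had no read in any library. Of 94 keratin-associated protein genes of hair none was on, 75 were off and 72 had no read. The threshold of 1 TPM was thus passed by 0.241% of the former family. Of the 2 families 374 and 90 genes share no exon base, and none of these was on. In the 13 lineage lists only 105 of 197 genes share none. The background is thus mainly that of genes without shared bases, and for genes with shared bases it may be too low.

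HOX genes, the transcription factors that give body segments their position along the head-tail axis, were on in 35 of 39 cases, against 65.2% of all coding genes, and in 11 of the 14 without shared exon bases. Every one of the 4 clusters was used. All 11 HOXA genes, 9 of 10 HOXB genes, 8 of 9 HOXC genes and 7 of 9 HOXD genes were on. The summed level was 394.7 ± 28.4 TPM for HOXB, 319.5 ± 25.8 TPM for HOXA, 200.3 ± 14.7 TPM for HOXD and 118.5 ± 5.19 TPM for HOXC. These sums include genes that share exon bases, so the same reads may have been counted more than once in them. HOXB9 (chromosome 17, 48621156 to 48626358, minus strand) had the highest level of the family, 201, 186, 217 and 175 TPM, followed by HOXA5 at 85.6, 81.4, 96.2 and 76.9 TPM and HOXD13 at 73.8, 64.1, 76.9 and 61.8 TPM. All 3 were highest in replicate 3 and lowest in replicate 4. The levels of HOXD13 overlapped between libraries with those of HOXA5 and with those of HOXB6, whose mean was 68.6 TPM. HOXB1, of the anterior end, stood at 0.157, 0, 0 and 0 TPM, HOXD1 at 1.03, 0.746, 0.719 and 0.75 TPM, HOXD12 at 0.755, 0.364, 0.676 and 0.384 TPM and HOXC12 at 0.874, 1.15, 1.26 and 2.08 TPM. These 4 were the members not on. HOXC12 was under 1 TPM in replicate 1 only, HOXD1 was over it in replicate 1 only, and HOXB1 had reads in replicate 1 only.

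**Figure D2:**
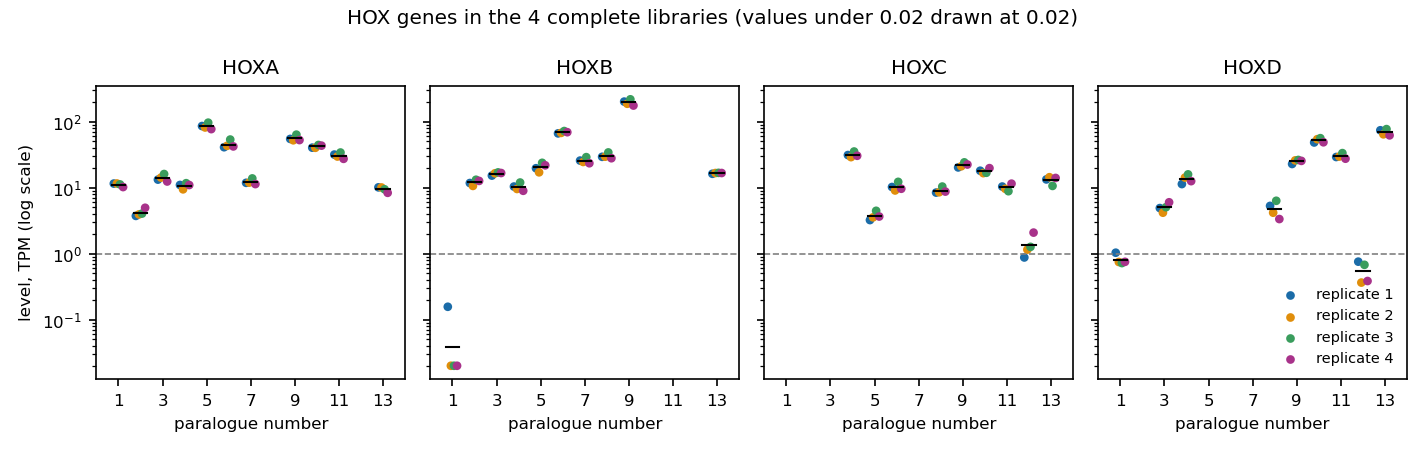
Level of each HOX gene in TPM on a log scale against its paralogue number, 1 panel per cluster; points are the 4 complete libraries, bars their mean, and the dashed line marks 1 TPM. The median gene lies at 13.9 TPM, and the 3 means below the line are those of HOXB1, HOXD1 and HOXD12.

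The sequence before the start was compared between genes on and off, as a description of the reference. Most mammalian housekeeping promoters lie in CpG islands, stretches where the dinucleotide CG has been kept, while many tissue-specific promoters lie outside them and some carry a TATA box. In the 250 bases before the RefSeq start (GRCh38.p14), which were matched for 15342 coding genes by symbol, the median number of CG was 21 for 10260 genes on, 8 for 2528 between and 3 for 2554 off. 10 or more CG were present in 86.5% of genes on, 24.8% of genes off and 69.3% of all. TATAAA, read on the gene's strand in the last 60 bases before the start, was found in 1.72% of genes on, 10.5% of genes off and 4.07% of all. Other forms of the TATA box, such as tatataag in the UMOD sequence below, were not counted. Among the top-ranked 100 nuclear genes TATAAA was found in 10.0%. 3 promoters are shown, all bases before the start, with every CG in capitals, to contrast SIX2 and LRRC58, which were on, with UMOD, which had 0 reads.
SIX2 (chr2:45009453-45009702, minus strand, 26 CG): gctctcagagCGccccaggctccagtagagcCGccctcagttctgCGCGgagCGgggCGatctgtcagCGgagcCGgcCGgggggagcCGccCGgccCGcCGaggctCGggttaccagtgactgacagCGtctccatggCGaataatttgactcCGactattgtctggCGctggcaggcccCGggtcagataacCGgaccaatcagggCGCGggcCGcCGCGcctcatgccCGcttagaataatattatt
LRRC58 (chr3:120349355-120349604, minus strand, 31 CG): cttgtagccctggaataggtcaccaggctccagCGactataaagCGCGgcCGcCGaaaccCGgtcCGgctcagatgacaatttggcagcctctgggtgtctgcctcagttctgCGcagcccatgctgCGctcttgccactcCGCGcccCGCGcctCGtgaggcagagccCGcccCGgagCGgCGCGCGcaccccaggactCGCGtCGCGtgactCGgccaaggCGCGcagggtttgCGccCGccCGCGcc
UMOD (chr16:20352716-20352965, minus strand, 2 CG): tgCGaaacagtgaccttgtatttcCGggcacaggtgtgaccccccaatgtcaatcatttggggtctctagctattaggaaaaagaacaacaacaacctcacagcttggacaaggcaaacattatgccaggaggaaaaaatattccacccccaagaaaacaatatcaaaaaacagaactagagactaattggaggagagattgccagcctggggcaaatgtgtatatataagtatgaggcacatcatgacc
The promoters of SIX2 and LRRC58 hold capitals along most of their length, and that of UMOD holds them only near the end far from the start. These are counts in the reference sequence, and no methylation was measured.

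Of the carriers of cystine and cysteine 7 of 8 were on. SLC1A5, a sodium-dependent exchanger of small neutral amino acids, was highest at 377, 385, 364 and 421 TPM, with 23.8% of its exon bases shared. SLC7A11 (chromosome 4, 138164097 to 138242349, minus strand), the subunit that exchanges cystine for glutamate, had 28.7, 33.7, 28.1 and 33 TPM, and its partner SLC3A2 had 83.4, 88.6, 84.2 and 89.7 TPM. MFSD12, which imports cysteine into lysosomes, had 33.4, 35.5, 36.4 and 39.4 TPM, with 23.9% of bases shared, and CTNS, which exports cystine from them, 16, 16.1, 17.1 and 15 TPM. The levels of MFSD12 and SLC7A11 overlapped between libraries, and every other pair of neighbours in the list was apart in all 4. SLC1A4 followed at 12.8 ± 0.417 TPM and the cysteine and glutamate carrier SLC1A1 at 3.98 ± 0.247 TPM. The partners that reabsorb cystine in the kidney tubule differed in level. SLC7A9, the transporting subunit, stood at 0.25, 0.181, 0.0994 and 0.191 TPM, and SLC3A1 at 9.84, 10.0, 10.0 and 10.0 TPM, though 54.6% of the exon bases of SLC3A1 are shared with another gene.

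Over all 8 lists of amino acid carriers, the cystine list included, 30 of 43 genes (69.8%) were on, near the 65.2% of all coding genes, and 17 of 24 without shared exon bases. SLC7A5, the partner of SLC3A2 for large neutral amino acids, had 239.8, 253, 241 and 262 TPM. Of the other light subunits, SLC7A6 stood at 42 ± 0.50 TPM, with 55.6% of bases shared, and SLC7A7, at 0.64, 0.888, 0.385 and 0.54 TPM, was not on. The arginine and lysine carriers SLC7A1, SLC7A2 and SLC7A3 were on at 107 ± 1.41, 21.9 ± 0.615 and 16.5 ± 0.677 TPM. The sodium-coupled carriers SLC38A2 and SLC38A1 had 94.4 ± 2.73 and 91.7 ± 3.76 TPM, and their levels overlapped between libraries. SLC6A19, the neutral carrier of gut and tubule, was off at 0, 0, 0 and 0.0269 TPM. Of the 4 genes of the glutamate list SLC1A3 alone was on, at 10.1, 11.1, 10.2 and 11 TPM, and SLC1A2, the chief carrier of forebrain astrocytes, was off at 0.0228, 0.0343, 0.0283 and 0.031 TPM. All 5 lysosomal amino acid carriers were on, from 6.15 ± 0.363 TPM for SLC38A9 to 19 ± 1.7 TPM for SLC66A1. The taurine carrier SLC6A6 had 12.9 ± 0.844 TPM.

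**Figure D3:**
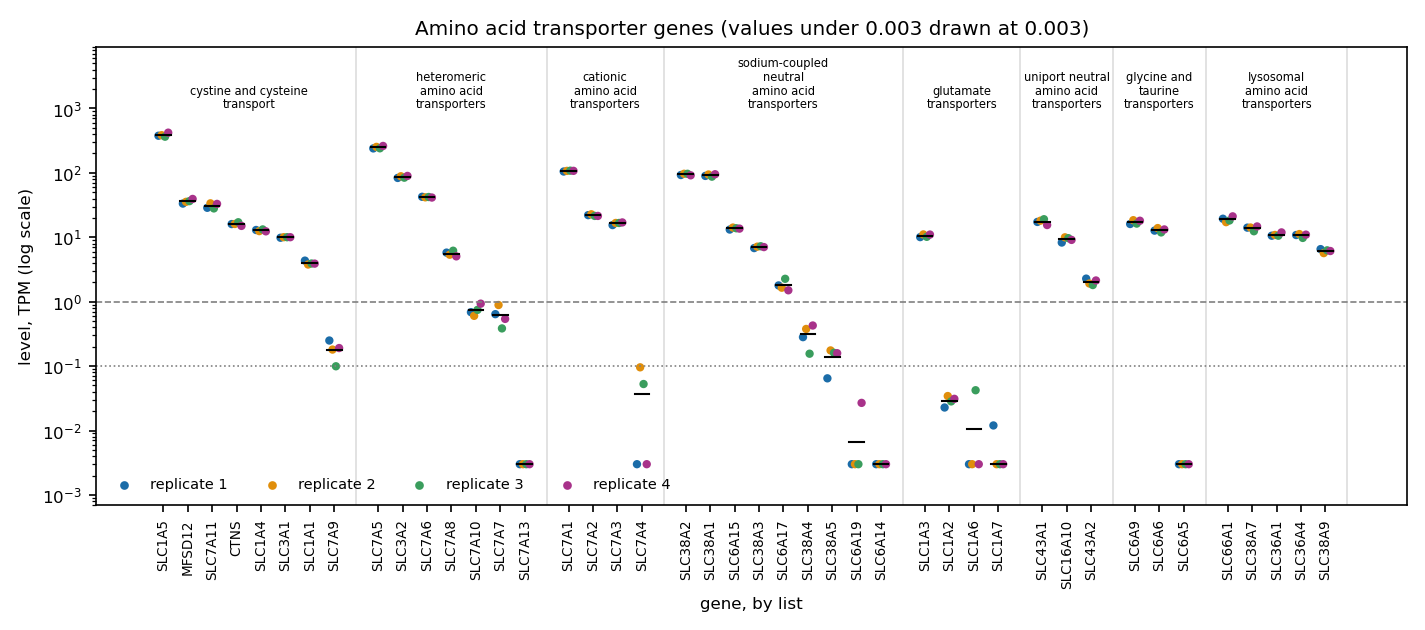
Level of each amino acid transporter gene in TPM on a log scale, grouped by list and ordered by mean; points are the 4 complete libraries, bars their mean, and lines mark 0.1 and 1 TPM. SLC1A5 and SLC7A5 stand highest, and no gene's 4 points straddle the line at 1 TPM.

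Among other carriers 35 of 74 genes over 8 lists (47.3%) were on, below the 65.2% of all coding genes, and 15 of 41 without shared exon bases. SLC2A1, the basal glucose carrier, had 20.6, 24.3, 19.5 and 25.1 TPM, SLC2A3 1.6, 1.36, 2.37 and 1.61 TPM, and SLC2A2, the carrier of liver and beta cells, no read (floor 0.138 TPM). The lactate carrier SLC16A1 had 129, 135, 136 and 128 TPM, while SLC16A3, known for lactate export, stood at 0.807, 0.787, 0.706 and 0.866 TPM and was not on. The vitamin carrier SLC5A6 and the nucleoside carrier SLC29A1 had 44 ± 1.19 and 50.8 ± 1.77 TPM. Of 18 organic ion carriers 5 were on. These were SLC47A1, which extrudes organic cations in the proximal tubule, at 10.1 ± 0.601 TPM, SLCO4A1 at 9.42 ± 0.623 TPM, the carnitine carrier SLC22A5 at 4.65 ± 0.109 TPM, SLCO4C1 at 2.15 ± 0.122 TPM and SLC22A4 at 1.94 ± 0.523 TPM. The proximal tubule carriers SLC22A2 and SLC22A8 were off, SLC22A2 at 0 reads (floor 0.0784 TPM) and SLC22A8 at 0.0152, 0, 0.0151 and 0.0166 TPM. The serotonin carrier SLC6A4 was on at 2.69, 2.51, 2.68 and 2.71 TPM, one of 2 on among 11 neurotransmitter carriers. The other was SLC18A2.

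Over the whole solute carrier superfamily 205 of 348 genes (58.9%) were on, and of 45 ABC transporter genes 25 (55.6%), both below the 65.2% of all coding genes. The mitochondrial ADP/ATP carriers SLC25A5 and SLC25A6 were the highest solute carriers, at 909 ± 10.8 and 615 ± 37.3 TPM. ABCF1, ABCF2 and ABCE1, which act in translation and cross no membrane, led the ABC genes at 105 ± 2.15, 96.1 ± 3.82 and 94.1 ± 3.93 TPM, with 37.1% of the exon bases of ABCF2 shared. Of the drug efflux pumps ABCC1 had 27, 29, 26.5 and 26.3 TPM, ABCB1 6.19, 6.6, 6.87 and 6.25 TPM and ABCG2 1.67, 1.95, 1.5 and 1.67 TPM.

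The genes at the centre of the study were on. LRRC58 (chromosome 3, 120324509 to 120349354, minus strand), a leucine-rich repeat protein that the study examines as a receptor of a cullin-RING ubiquitin ligase, had 42, 43.3, 41.1 and 40.1 TPM and ranked 2810 among coding genes. CDO1 (chromosome 5, 115804733 to 115816659, minus strand), the dioxygenase that starts cysteine breakdown, had 8.7, 9.04, 9.92 and 8.03 TPM and ranked 8833. LRRC58 lay above CDO1 in every library, and neither shares exon bases with another gene. All 14 genes of the ligase and substrate list were on. The cullins CUL2 and CUL5 stood at 11.4 ± 0.559 and 30.6 ± 1.11 TPM, the adaptors ELOB and ELOC at 36.4 ± 2.05 and 13.7 ± 0.558 TPM, the RING subunits RBX1 and RNF7 at 35.4 ± 0.977 and 33.5 ± 0.935 TPM and the neddylation enzyme UBE2M at 194 ± 6.08 TPM. CTH, which makes cysteine from cystathionine, had 43.1, 39.7, 37.6 and 46.7 TPM, and the serine synthesis genes PHGDH and PSAT1 had 100.3 ± 3.52 and 284 ± 11.2 TPM.

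The demand for cysteine coded in these mRNAs was described from the coding sequences of GENCODE. Over 12873 coding genes on, cysteine was 2.16% of codons in the plain mean, against 3.62% over 3420 coding genes off. Weighted by level and protein length it was 1.59% ± 0.00968. The top-ranked classes are poor in cysteine, with 1.58% in 86 ribosomal protein genes and 0.773% in the 13 mitochondrial mRNAs. Metallothioneins, small metal-binding proteins in which cysteine is 32.8% of codons for both MT2A and MT1X, were on in 2 of 11 cases, and 8 had 0 reads. MT2A had 10.6, 7.53, 13.7 and 8.36 TPM and MT1X 4.69, 5.48, 6.8 and 2.62 TPM, with replicate 3 highest for both. With mates as 1 count, MT1X passed the test of variation and MT2A did not. The granulin precursor GRN, with 14.8% cysteine codons and a level of 113.2 TPM, had the highest share after MT2A among coding genes with a mean of 10 TPM or more.

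Other programmes are given by their lists. All 9 mitosis genes were on, with CDC20 at 186 ± 4.56 TPM and MKI67, the proliferation marker, at 141 ± 4.74 TPM. All 12 genes of sterol and fatty acid synthesis were on, led by the desaturase SCD at 428 ± 12.9 TPM. Of the glycolysis isoforms 22 of 26 were on. PKM had 340.4 ± 11.8 TPM, HK2 55.8 ± 5.97 TPM, and LDHB, at 720.4 ± 21.3 TPM with 33.4% of bases shared, lay above LDHA at 259 ± 6.36 TPM in every library. Of the integrated stress response list 11 of 12 were on, with ATF4 at 661, 636, 719 and 646 TPM, CHAC1 at 15.7, 14.7, 11.1 and 16.5 TPM and NUPR1 at 1.01, 0.951, 1.13 and 1.13 TPM. Of 48 nuclear receptors 30 were on, led by NR2F6 and NR2F2 at 51.7 ± 2.11 and 44.2 ± 3.42 TPM, while the estrogen receptor ESR1 stood at 0.0797 ± 0.0231 TPM.

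In a list drawn up around the sensing of foreign nucleic acid 5 of 15 genes were on. The list holds adaptors, transcription factors and Toll-like receptors of other microbial products beside sensors of nucleic acid, so this is no count of such sensors. The adaptor MAVS had 33.7, 32.9, 31.9 and 33.9 TPM and the transcription factor IRF3 26.6 ± 1.34 TPM. The DNA sensor CGAS stood at 0.0621, 0.262, 0.0928 and 0.17 TPM, close to its floor of 0.112 TPM, and STING1, which acts after it, at 1.11, 1.19, 1.91 and 1.39 TPM. Interferon-stimulated genes were on in 4 of 11. Immediate early genes were on in 13 of 15, with JUN at 159, 141, 209 and 123 TPM and FOS at 2.73, 2.45, 2.78 and 1.62 TPM. Hypoxia genes were on in 8 of 9.

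Which genes vary among the replicates was asked with a chi-square test per gene of the recovered reads against shares set by the deposited scaling, over 26166 genes with a normalised count of 10 or more in at least 3 complete libraries and with Benjamini-Hochberg adjustment over all of them. At an adjusted p of 0.01, 9474 genes (36.2%) varied by more than counting error if each read is 1 count. With the mates of a pair as 1 count, which the excess of even counts calls for, 3997 (15.3%) did, all of them among the 9474. The stricter calls are used from here on. The share called was higher at higher mean normalised counts, from 1.17% of 8604 genes between 10 and 100 to 9.09%, 31.9% and 84.3% in the classes up to 1000, up to 10000 and above. The median coefficients of variation were 24.3%, 9.67%, 5.20% and 4.03% in the same classes, counting error included. With the counting error of read pairs taken off they were 0%, 4.88%, 4.15% and 3.85%, so in the lowest class the median spread was no larger than counting error. The genes below were chosen by the coefficient of variation beyond the counting error of reads, not by p, and all 20 passed with mates as 1 count. The common biological coefficient of variation from edgeR was 8.79% with each read as 1 count, so part of the counting error of pairs remains in it.

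2 libraries held most of the extremes. Of the 3997 genes called, replicate 3 was highest in 1691 and lowest in 1272. Replicate 4 was highest in 961 and lowest in 1955. Replicate 1 was highest in 1074 and lowest in 232, and replicate 2 was highest in 271 and lowest in 538. Replicate 3 was highest with replicate 4 lowest in 1347 genes, the reverse held in 802 and other orders in 1848. Without replicate 3 the number called was 1834 and without replicate 4 it was 2362, against 3912 without replicate 2 and 3336 without replicate 1.

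The 20 genes with a symbol, a mean of 100 or more, no shared exon base and the largest spread beyond counting error follow the same split. In 11 of them replicate 3 was highest and replicate 4 lowest, and in 4 the reverse held. TRIP11, a Golgi protein, had normalised counts of 1261, 1208, 2077 and 808 (chi-square, mates as 1 count, adjusted p = 5.59e-62). TUBGCP3, of the complex that nucleates microtubules, had 1319, 979.6, 1782 and 664 (adjusted p = 2.10e-55), and the transcription factor PLAGL2 had 2576, 2049, 3270 and 1296 (adjusted p = 2.38e-88). The growth factor BMP2 had 154, 116, 262 and 94.4 and the zinc finger gene ZNF239 had 187, 147, 309.6 and 94.4, again with replicate 3 on top. ZNF22-AS1, HSD11B1-AS1, ESPNL, ZNF496, XK and TMCC2 kept this order, with ratios of highest to lowest between 2.08 and 2.75. GALR2, a galanin receptor, went the other way and was the most uneven of all, at 81.9, 125, 29.4 and 165, a ratio of 5.59 between replicates 4 and 3. TGM1, CTDP1-DT and CDKN2D, an inhibitor of cyclin-dependent kinases, also had replicate 4 highest and replicate 3 lowest, with CDKN2D at 322, 324, 181 and 472. GRIN2C had 129, 246, 129.9 and 246, which splits the libraries in pairs. Some of these calls rest on 1 library. Without replicate 3 the coefficient of variation of GALR2 went from 57.9% to 33.4% and its call was lost (chi-square, mates as 1 count, adjusted p = 0.019), as were those of ZNF239, BMP2, TGM1, ESPNL, XK and TMCC2 (adjusted p = 0.012 for ZNF239 to 0.80 for ESPNL). Without replicate 4 the calls of CTDP1-DT and XK were lost (adjusted p = 0.22 and 0.027).

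Another 4 of the 20 are genes or copies of the 7SL RNA of the signal recognition particle, and there replicate 1 was lowest. RN7SL1 had 987, 2619, 2371 and 2684, RN7SL3 147, 521, 451 and 566, RN7SL4P 351, 1149, 1012 and 1176 and RN7SL5P 296, 902, 845 and 847. In each, replicate 1 was below 50% of every other library, and without it all 4 calls were lost (chi-square, mates as 1 count, adjusted p = 0.037 for RN7SL1 to 0.79 for RN7SL5P). The copies are near-identical, so they are not independent observations. 7SL RNA is made by RNA polymerase III and lacks the poly(A) tail of an mRNA.

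**Figure D4:**
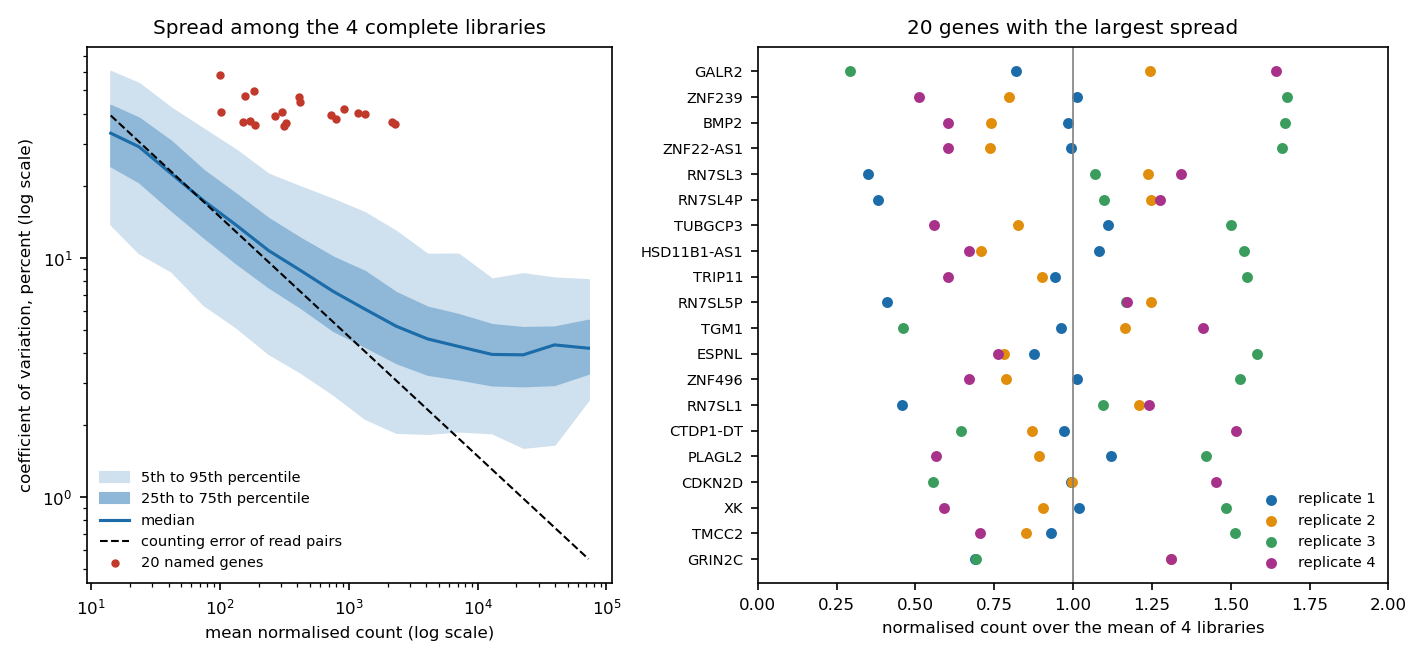
Left, the coefficient of variation over the 4 complete libraries against the mean normalised count, both on log scales, as percentiles over genes, with the counting error of read pairs and the 20 named genes. Right, the normalised count of each named gene in each library over its mean; replicates 3 and 4 lie at opposite ends for most genes, and replicate 1 lies lowest for the RN7SL genes.

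GC content moved with some of these differences, and its part in them was not tested. Across 6709 genes with a mean of 100 or more and no shared exon base, the log2 ratio of a library to the mean correlated with GC content at r = -0.099, -0.18, 0.0092 and 0.16 for replicates 1 to 4, a description over genes, which are not replicates. Among the 100 most uneven genes called, the 58 higher in replicate 3 than in 4 had a median GC content of 48.2% and the 42 higher in replicate 4 had 59.3%, against 47.3% over the 6709 genes. The higher GC content was thus seen on the side of replicate 4. The labels give no batch for the 4 libraries.

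At a mean of 100 or more, 3896 of 17529 genes (22.2%) were called, and the median coefficient of variation of the normalised count, the scale of all those below, was 6.90%. All 10 heat shock genes at that level were called, but the share called rises with the count, to 31.9% of all genes between 1000 and 10000 and 84.3% above. HSPA1A and HSPA1B led with coefficients of variation of 29.2% and 28.7%, and DNAJB1, a co-chaperone of HSP70, had 38.6, 37.4, 27.4 and 42.8 TPM, with replicate 3 lowest and replicate 4 highest in all 3 genes. HSPB1, a small heat shock protein, had 87.6, 87.5, 89.2 and 75.5 TPM, with replicate 4 lowest. JUN varied by 23.8%, in the opposite direction to the HSP70 genes, and 5 of 12 immediate early genes were called. Of 34 HOX genes 9 were called, and the median ratios of this family to the mean were 1.0, 0.956, 1.1 and 0.923 in replicates 1 to 4. All 13 mitochondrial mRNAs were called, with ratios of 1.03, 1.06, 0.956 and 0.952 and a median coefficient of variation of 6.15%. Of all genes with a mean of 10000 or more, 84.3% were called. Ribosomal protein genes were called in 72 of 85, with a median coefficient of variation of 3.28%. Their counts were high, and the 75 with a mean of 10000 or more had a median of 3.25%, against 4.03% over all 586 genes of that class. Of 7 cystine carriers 2 were called, SLC1A5 with a coefficient of variation of 5.35% and SLC7A11 with 8.54%, where replicates 2 and 4 lay above replicates 1 and 3. The arginine carrier SLC7A1 varied by 0.954%. LRRC58 and CDO1 varied by 4.48% and 9.13%, neither past the threshold (chi-square, mates as 1 count, adjusted p = 0.016 and 0.59).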

How the data were processed

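Per the methods and the submitters' processing notes, the authors aligned read pairs to GRCh38 with STAR 2.7.10b, counted them on Ensembl genes and deposited a signal per gene and library, the read count divided by a DESeq2 size factor; the counter differs between these sources. In the complete libraries 100% of the deposited values were whole multiples of the step of the library (tolerance 0.001), which gave the reads. IDs were matched to GENCODE release 44 (61463 of 78894; the others held 1.75% to 1.79% of reads), and 37 Y copies of X-linked genes were left out. Variation was tested by chi-square with 3 degrees of freedom and Benjamini-Hochberg adjustment over all genes tested, without groups, and the code was tested on simulated data. edgeR 4.0.16 gave the dispersion, and size factors of DESeq2 1.42.0 were an alternative. Python 3.11.15, numpy 2.4.6, scipy 1.17.1 and pandas 2.3.3 were used. Named genes were the top-ranked 20 coding genes with under 50% of exon bases shared, the top-ranked 5 long noncoding genes, the 20 most uneven genes, members of lists written from general knowledge, LRRC58 and CDO1; GRN, the other top-ranked nuclear genes and the pseudogenes were picked after their values were seen. Members and lists were chosen with earlier results of these data known. Counting mates as 1 was added after the data were examined. Alternatives are given in the closing section. The other 6 libraries of the table were not used here. A few genes that the rule names are not reported here.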

Additional observations from a re-analysis of the deposited data

Results flagged for a closer look

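Of 284 sets of 4 values examined, in 21 the highest or lowest complete library stood apart from the other 3 by Dixon's test. Chance flags about 1 in 20 such sets. The sets include genes chosen for their spread among these libraries and genes with reads in 1 library only, to which this rate does not apply. Complete replicate 2 had 2164 genes with 1 read against 2220 to 2231 in the others, and replicate 1 had 1927 genes with 4 reads against 2034 to 2052. Replicate 4 was highest for the summed level of vitamin carriers, 211.2 TPM against 200.9 to 202.3 TPM, and of all solute carriers, 6599 TPM against 6308 to 6350 TPM. The summed level of olfactory receptors was 12.3 TPM in replicate 2 against 9.76 to 9.85 TPM.

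Among single genes at clear levels, MT-ND5 had 4696 TPM in replicate 2 against 3993 to 4043 TPM in the others, and RPS12 had 2290 TPM in replicate 2 against 2347 to 2349 TPM. GAPDH had 1879 TPM in replicate 1 against 1775 to 1778 TPM, and HSPB1 had 75.5 TPM in replicate 4 against 87.5 to 89.2 TPM. SLC3A1 had 9.84 TPM in replicate 1 against 10.0 TPM in each of the others, SLC6A4 had 2.51 TPM in replicate 2 against 2.68 to 2.71 TPM, and HOXD1 had 1.03 TPM in replicate 1 against 0.719 to 0.750 TPM. The normalised count of RN7SL5P was 296.2 in replicate 1 against 844.7 to 901.8, and that of ESPNL was 421.3 in replicate 3 against 203.0 to 233.2.

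The other 7 are genes near 0, where single reads decide. COL1A2 (0.0072 TPM, replicate 2), DCX (0.015 TPM, replicate 2), HOXB1 (0.157 TPM, replicate 1), KRT19 (0.055 TPM, replicate 3), LIN28A (0.032 TPM, replicate 3) and SLC6A19 (0.027 TPM, replicate 4) had reads in 1 library only. SLC22A8 had 0 reads in replicate 2 against 0.015 to 0.017 TPM in the others.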

How the results depend on the processing

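No paired analysis was possible because the complete libraries are a single group and no contrast was made. With genes that share exon bases left out and levels rescaled over the others, 10087 genes and 6199 coding genes were on, as were 35 lineage genes, 17 amino acid carriers and 20 other carriers, and 3918 of 10284 genes varied with each read as 1 count. The top-ranked 100 genes then held 47.1% of the level, the mitochondrial genome 24.5%, coding genes 61.2%, long noncoding genes 4.86% and processed pseudogenes 18.2%. As reads with no length correction, these 5 shares were 17.1%, 4.80%, 88.9%, 6.88% and 1.74%. With the longest transcript as length they were 29.7%, 15.0%, 70.4%, 11.0% and 7.27%, and the cysteine content was 1.62%. Without mitochondrial genes the top-ranked share was 22.0%.

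The number of varying genes was 9474 with each read as 1 count and 3997 with mates as 1 count, an alternative chosen after seeing the data. Leaving out 1 library gave, over reads, 5682 (without replicate 3) to 8499, and with mates as 1 count 1834 (without replicate 3) to 3912, with 2362 without replicate 4. Over reads, other scalings, filters and thinning to the smallest library gave 8474 to 9445, and a threshold of 0.05 gave 12828. Of 80 calls of the 20 most uneven genes with a library left out, 5 were lost, and 13 were lost with mates as 1 count. The numbers of genes, coding genes, lineage genes, amino acid carriers and other carriers on stayed within 1.5 times of the values above when a library was left out, the threshold or length definition changed or the libraries were thinned to the smallest, with 17866 to 22666 genes on; single lists were not run. Depth limits the absence of a gene to its floor, and an annotation of another release could move the levels; this was not tested.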
